A study of Rattus norvegicus with 6 samples.

Results

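Interleukin 15 signalling and the T-box factors of natural killer cells were followed through 10 named genes. They are the cytokine Il15, its private receptor chain Il15ra, the shared receptor chains Il2rb and Il2rg, the kinases Jak1 and Jak3, the transcription factors Stat5a and Stat5b, and the T-box factors Eomes and Tbx21. Members were found by gene symbol, as every probe set whose annotation gave 1 symbol, that of a listed gene. This gave 10 probe sets for 8 of the 10 genes, out of 31042 probe sets and 14217 genes on the array. Il15ra and Tbx21 had no such probe set and were not analysed here. Jak1 and Eomes had 2 probe sets each and the other 6 genes 1 each. RNA came from the metrial gland of pregnant rats, the maternal tissue behind the placenta, where natural killer cells, decidual stroma, vessels and invading trophoblast meet. Per the labels, 3 arrays came from rats held at 10.5% oxygen between days 6.5 and 13.5 of gestation (hypoxia) and 3 from rats kept at 21% oxygen over the same days (ambient). Tissue was collected at the end of the exposure; no strain is named, and nothing says that the 3 replicates of a group were separate animals, so a p-value here weighs a difference only against array-to-array spread, which can be technical.

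Interleukin 15 is the cytokine on which natural killer cells depend for their development and survival. It is carried to them on the surface of neighbouring cells by its alpha chain, Il15ra, and is read by a receptor of the beta chain Il2rb and the common gamma chain Il2rg. The kinase Jak1 sits on the beta chain and Jak3 on the gamma chain, and together they phosphorylate Stat5a and Stat5b, which then move to the nucleus. Eomes and Tbx21 (T-bet) set the killer cell programme, and in mice they are known to act on the gene for the beta chain. Eomes is also a gene of trophoblast stem cells.

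All 10 probe sets were lower in the mean of the hypoxia arrays than in that of the ambient arrays, and 2 of them passed the test, Il2rb and one probe set of Eomes. Values are log2 expression summaries, so a difference of -1 is a halving of the signal. The test was limma over 18625 probe sets, with a threshold at a Benjamini-Hochberg adjusted p of 0.05. The member counts were thus 0 higher, 2 lower and 8 not past the threshold, where 4.02% of all probe sets tested were higher and 1.97% lower. Of all probe sets tested, 49.2% had a difference below 0. At an unadjusted p under 0.05, 8 of the 10 member probe sets were lower, against 10.6% of all. In 7 of the 10 every hypoxia array lay below every ambient array, against 14.1% of all. The median difference was -0.33 over the 10 probe sets and 0.00 over all probe sets tested. The count of 2 is small and depended on single arrays. It was 0 without ambient replicate 3 or hypoxia replicate 1. It was 1 when hypoxia replicate 2 or either of the other ambient arrays was left out. It was 4 without hypoxia replicate 3, when Il15 and Il2rg passed as well.

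**Figure D1:**
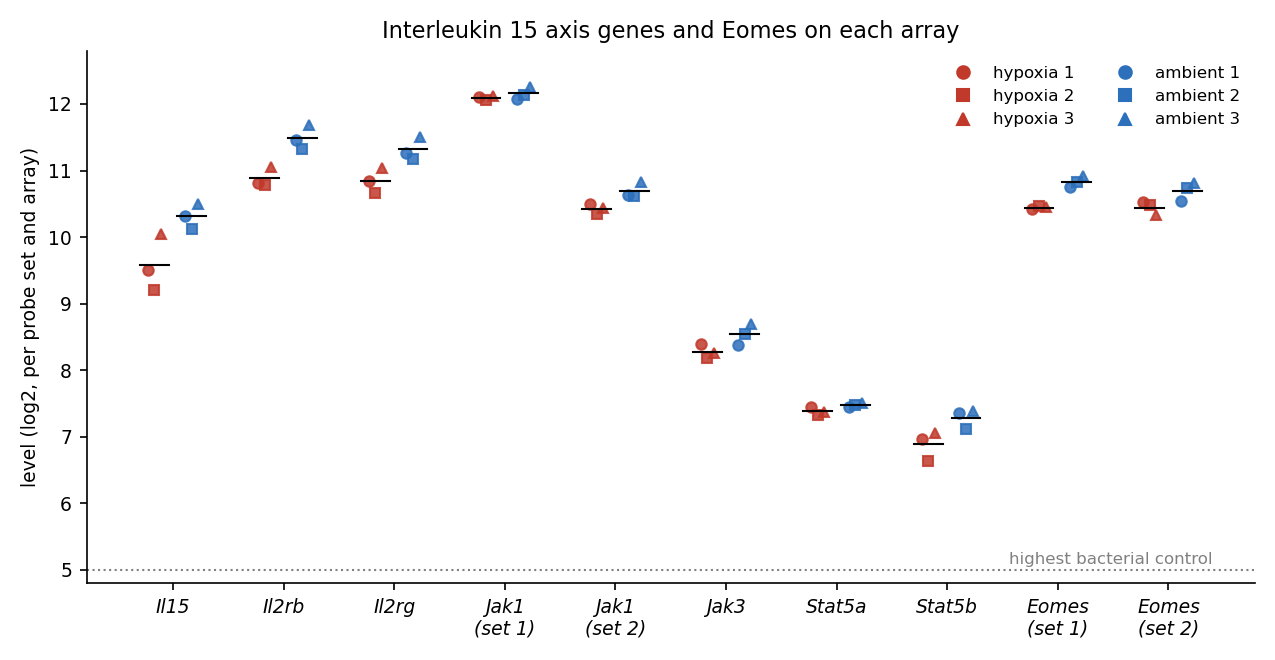
Level of each of the 10 probe sets on each array (log2), hypoxia in red and ambient in blue, with marker shape for the replicate number and black bars for group means (n = 3 each). Every probe set lay above the highest bacterial control (5.0, dotted line), and ambient replicate 3 was the highest ambient array for all 10. Levels of different probe sets cannot be compared with each other.

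The promoters of the genes whose groups did not overlap at their brightest probe set are shown first, since these are the members with the clearest separation. Of the 5 such genes, Il15, Il2rg, Stat5b and Eomes had an entry in the RefSeq promoter table (build GRCr8), which runs from 250 bases before to 50 after a gene's start as that table places it. For Il15 that start lies inside the gene's RefSeq locus, which begins at 42536160 on chromosome 19. The printed Il15 window is thus not at the outer end of the locus. Over all members 7 of 10 had an entry, and Il2rb, Jak1 and Jak3 had none. Each was searched on both strands for TTCNNNGAA, a STAT motif, for AGGTGTGA, a T-box motif, and for ACGTG, the core of the hypoxia response element. None of these 3 motifs overlaps another in the windows printed. Capitals mark the matches.
Il15, chr19:42544456-42544755, plus strand: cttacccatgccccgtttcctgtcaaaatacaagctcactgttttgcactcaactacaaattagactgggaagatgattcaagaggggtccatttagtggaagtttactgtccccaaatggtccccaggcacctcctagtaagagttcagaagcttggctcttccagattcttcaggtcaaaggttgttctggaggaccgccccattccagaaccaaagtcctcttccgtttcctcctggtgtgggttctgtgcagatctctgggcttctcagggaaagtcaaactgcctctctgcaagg
Il2rg, chrX:70438951-70439250, minus strand: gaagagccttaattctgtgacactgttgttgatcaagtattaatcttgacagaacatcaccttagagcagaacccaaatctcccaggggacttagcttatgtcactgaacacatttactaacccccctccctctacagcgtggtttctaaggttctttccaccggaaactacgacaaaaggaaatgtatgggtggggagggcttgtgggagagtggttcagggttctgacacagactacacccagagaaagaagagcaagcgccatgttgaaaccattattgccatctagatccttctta
Stat5b, chr10:86275903-86276202, minus strand: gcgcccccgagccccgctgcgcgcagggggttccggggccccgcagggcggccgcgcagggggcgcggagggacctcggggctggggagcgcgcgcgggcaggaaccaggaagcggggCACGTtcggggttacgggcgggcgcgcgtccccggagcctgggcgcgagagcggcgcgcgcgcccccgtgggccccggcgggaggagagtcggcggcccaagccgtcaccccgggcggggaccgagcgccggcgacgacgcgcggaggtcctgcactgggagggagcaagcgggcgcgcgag
Eomes, chr8:127058965-127059264, plus strand: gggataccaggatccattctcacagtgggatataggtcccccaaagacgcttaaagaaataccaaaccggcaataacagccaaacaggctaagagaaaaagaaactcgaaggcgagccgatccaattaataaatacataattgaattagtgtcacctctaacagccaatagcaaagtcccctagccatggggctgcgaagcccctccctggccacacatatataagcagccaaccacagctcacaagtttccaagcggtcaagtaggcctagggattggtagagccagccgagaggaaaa

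Of the 7 members with a promoter entry, 1 held a match, the ACGTG core of Stat5b (printed as CACGT, its reverse complement), which starts 132 bases before the gene's start. The same core occurred in 19.3% of 33469 rat promoters of that length. The STAT motif, in 8.87% of all promoters, and the T-box motif, in 1.10%, were in 0 of the 7. A match is a description of the letters in this window and not a binding site.

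On the ligand side, Il15 had the lowest difference of the 10 probe sets. Its probe set (1368375_a_at) read 9.50, 9.20 and 10.04 on the hypoxia arrays, against 10.32, 10.12 and 10.49 on the ambient arrays. The groups did not overlap, but hypoxia replicate 3 stood only just below ambient replicate 2, and the hypoxia arrays were spread more widely (SD 0.42) than the ambient arrays (SD 0.18). The difference was -0.73 (SE 0.20), 60.3% of the ambient level, with a 95% interval from -1.18 to -0.28. It did not pass the test over all probe sets (limma adjusted p = 0.0698). Only 0.574% of the probe sets tested had a lower difference. Without hypoxia replicate 3 the difference was -0.96 and passed (adjusted p = 0.016), and without hypoxia replicate 2 it was -0.54 (adjusted p = 0.149). The range of adjusted p over all alternatives was 0.012 to 0.206.

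Of the receptor chains, Il2rb fell. This chain, shared by the receptors for interleukins 2 and 15, carries the signal into the cell. It read 10.82, 10.79 and 11.06 under hypoxia, against 11.46, 11.33 and 11.68 in ambient tissue. Every hypoxia array was lower than every ambient array. The fall was -0.60 (SE 0.10), 66.0% of the ambient level (95% interval -0.84 to -0.36, limma adjusted p = 0.0214). Leaving out ambient replicate 1 ended the call (adjusted p = 0.0561), as did leaving out ambient replicate 3 (0.0628), hypoxia replicate 1 (0.0728) or hypoxia replicate 2 (0.0639), while the difference stayed between -0.68 and -0.51.

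Il2rg, the common gamma chain that several interleukin receptors share, read 10.84, 10.66 and 11.04 under hypoxia, against 11.27, 11.17 and 11.51 in ambient tissue. The groups did not overlap. The difference was -0.47 (SE 0.11, 72.3% of the ambient level, limma adjusted p = 0.0538), and it did not pass. It did pass with quantile normalization (0.0451), with centring of the arrays (0.0499), with the 60% filter (0.0496), with array weights (0.0491) and without hypoxia replicate 3 (0.0356), over a range up to 0.16. On this array the alpha chain of the interleukin 2 receptor, Il2ra, and interleukin 2 itself lay at or below the highest bacterial control on all 6 arrays, so only a bound can be given for them.

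Jak1, the kinase of the beta chain, had 2 probe sets, of which neither passed. The brighter one (1383478_at) read 12.10, 12.06 and 12.12 under hypoxia, against 12.08, 12.14 and 12.26 in ambient tissue, and the groups overlapped. Its difference was -0.07 (95% interval -0.20 to 0.07, limma adjusted p = 0.528), an interval whose lower end is a 1.15-fold lower level. The second (1384060_at) read 10.50, 10.34 and 10.43 under hypoxia, against 10.63, 10.62 and 10.83 in ambient tissue, with no overlap. Its difference was -0.27 (SE 0.08, adjusted p = 0.081). The gap between the 2 probe sets was 1.67 ± 0.06 under hypoxia and 1.47 ± 0.04 in ambient tissue (SD, n = 3 each), without overlap. This difference between the probe sets was not tested.

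Jak3, the kinase of the gamma chain, is made mainly by lymphocytes and other blood cells. It read 8.40, 8.18 and 8.26 under hypoxia, against 8.38, 8.55 and 8.69 in ambient tissue. Hypoxia replicate 1 lay just above ambient replicate 1, so the groups overlapped. The difference was -0.26 (SE 0.10, 95% interval -0.49 to -0.03, limma adjusted p = 0.165).

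The paralogs Stat5a and Stat5b, neighbours on chromosome 10 that encode closely similar proteins, differed in whether their groups overlapped. Stat5a read 7.45, 7.32 and 7.37 under hypoxia, against 7.45, 7.48 and 7.50 in ambient tissue, a difference of -0.09 (95% interval -0.26 to 0.08, limma adjusted p = 0.502). Its groups overlapped, with hypoxia replicate 1 level with ambient replicate 1. Stat5b read 6.97, 6.64 and 7.06 under hypoxia, against 7.36, 7.12 and 7.38 in ambient tissue, a difference of -0.40 (SE 0.13, adjusted p = 0.112). Its groups did not overlap, with hypoxia replicate 3 close below ambient replicate 2. Neither passed the test. Transcripts of close paralogs can bind each other's probes, so values of a single Stat5 gene are uncertain.

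Eomes, a T-box factor of natural killer cells and of trophoblast stem cells, fell at one of its probe sets. That probe set (1379530_at) read 10.42, 10.46 and 10.45 under hypoxia, against 10.75, 10.83 and 10.92 in ambient tissue. The hypoxia arrays agreed closely (SD 0.02), and all of them lay below the ambient arrays (SD 0.09). The fall was -0.39 (SE 0.06, 76.3% of the ambient level, limma adjusted p = 0.0156). With ambient replicate 2 left out the adjusted p was 0.0554, with ambient replicate 3 left out 0.0567 and with hypoxia replicate 1 left out 0.0588, and the call was then lost. The second probe set (1385222_at) read 10.52, 10.48 and 10.33 under hypoxia, against 10.54, 10.74 and 10.82 in ambient tissue. It too had no overlap, by the narrow gap between hypoxia replicate 1 and ambient replicate 1, and its difference of -0.26 (SE 0.09, adjusted p = 0.127) did not pass. The gap between the 2 probe sets overlapped between the groups.

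**Figure D2:**
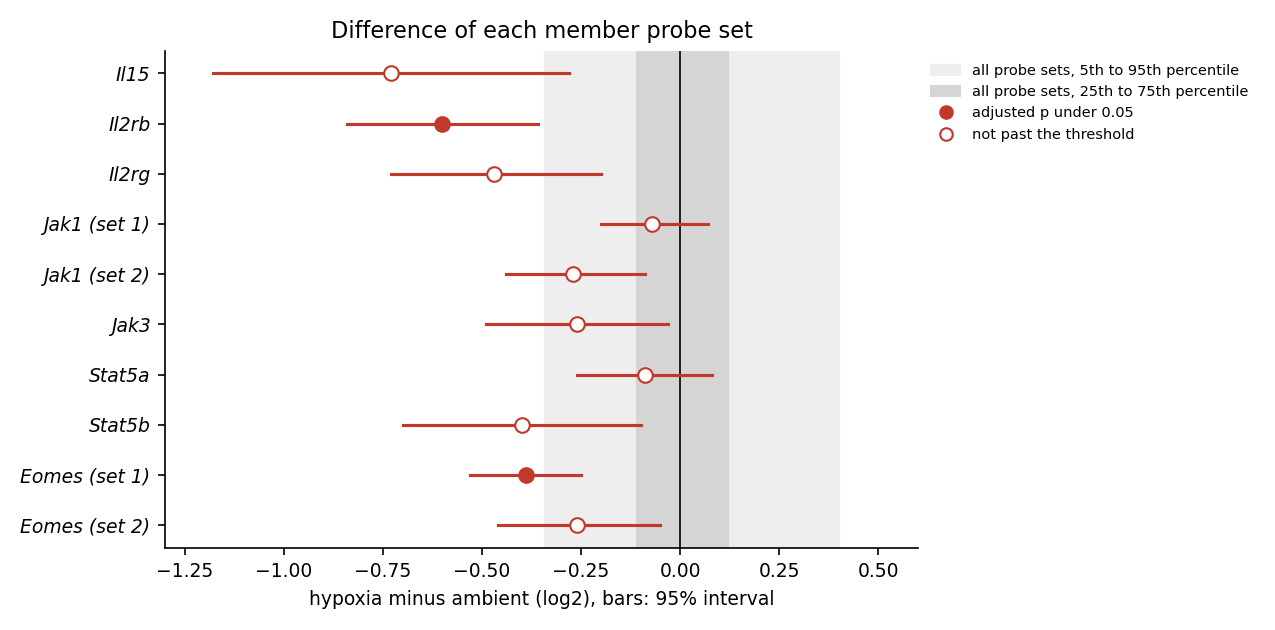
Difference of each probe set, hypoxia minus ambient (log2), with its 95% interval; filled points passed the test. Shading gives the middle of all 18625 probe sets tested (5th to 95th percentile, -0.34 to 0.40, and 25th to 75th, -0.11 to 0.12). All 10 points lie left of 0, and Il15, Il2rb, Il2rg, Stat5b and the first Eomes probe set lie left of the wider band.

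Whether ligand and receptor changed unequally was asked within each array, by the log2 difference between 2 members. Il2rb minus Il15 was 1.32, 1.59 and 1.02 under hypoxia, against 1.14, 1.21 and 1.19 in ambient tissue. The hypoxia values lay on both sides of the ambient values, and the means differed by 0.13 (exact permutation p = 0.6, two-sided, n = 3 each). Il2rg minus Il15 was 1.34, 1.46 and 1.0 under hypoxia, against 0.95, 1.05 and 1.02 in ambient tissue, a difference of 0.26 (exact permutation p = 0.3). This permutation test allows no p below 0.1 with 3 arrays against 3, so it could not pass the threshold for any pair and leaves undecided whether the balance of ligand and receptor differed.

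Within the receptor complex, Il2rb minus Il2rg was -0.02, 0.13 and 0.02 under hypoxia, against 0.19, 0.16 and 0.17 in ambient tissue. These groups did not overlap, with a difference of -0.13 (exact permutation p = 0.1, the smallest possible; adjusted p = 0.25 over the 5 pairs tested). Jak3 minus Jak1, at the brighter Jak1 probe set, also separated the groups, with -3.81 ± 0.10 under hypoxia and -3.62 ± 0.07 in ambient tissue (SD, n = 3 each; exact permutation p = 0.1, adjusted p = 0.25). With the mean of both Jak1 probe sets the difference of -0.19 became -0.09 (exact permutation p = 0.2). Stat5a minus Stat5b was 0.50 ± 0.19 under hypoxia and 0.19 ± 0.15 in ambient tissue, with overlap (SD, n = 3 each; exact permutation p = 0.2, adjusted p = 0.333). The other 3 of the 8 planned pairs needed Il15ra or Tbx21.

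**Figure D3:**
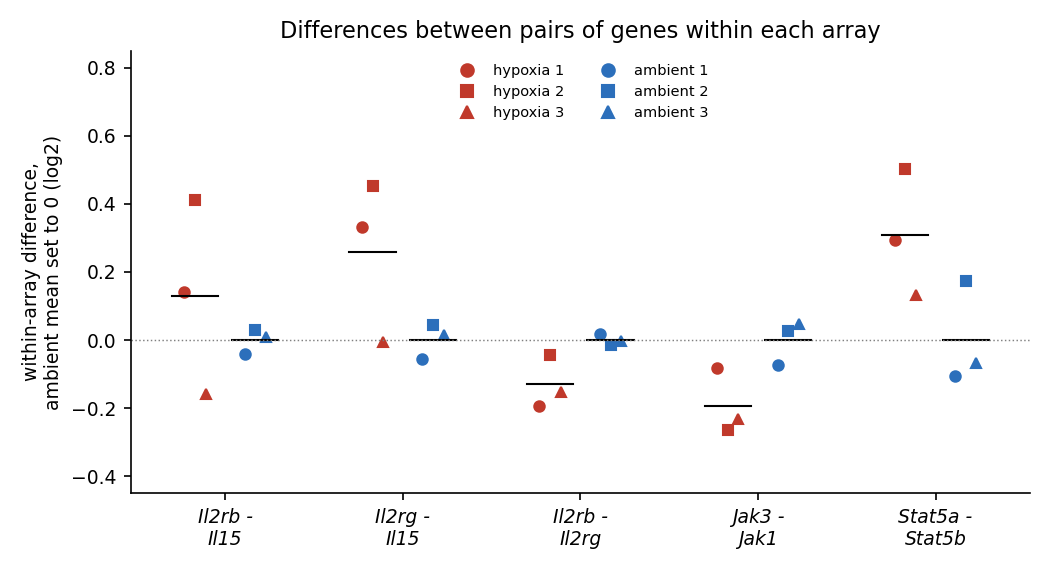
Within-array log2 difference between 2 members, shifted so that the ambient mean of each pair is 0; hypoxia in red, ambient in blue, marker shape for the replicate number, black bars for group means. The hypoxia values of Il2rb minus Il15 straddle the ambient values, while those of Il2rb minus Il2rg and Jak3 minus Jak1 lie below all ambient values.

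Around the receptor, 7 lists of pathway and regulator genes held 68 genes above the filter on low means, counted once each. Of these, 2 were higher, 9 lower and the rest not past the threshold. Over all probe sets tested, 4.02% were higher and 1.97% lower, the shares to set beside the counts of every list here and below. Of 6 other JAK and STAT genes, 0 were higher and 1 was lower. This was Stat4, which relays interleukin 12 in killer and T cells. It read 7.14, 6.87 and 7.34 under hypoxia, against 7.66, 7.77 and 7.86 in ambient tissue, and fell by -0.65 (SE 0.13, limma adjusted p = 0.0301). Jak2, which serves other cytokine receptors, differed by -0.52 and did not pass (adjusted p = 0.0541, and 0.0391 to 0.169 over the alternatives; it passed without hypoxia replicate 1). Of 11 adaptors and kinases that act after the receptor, 0 were higher and 2 lower. In 4 of the 11 every hypoxia array lay below every ambient array, against 14.1% of all probe sets tested. In 2 every hypoxia array lay above every ambient array, the kinases Mtor (0.29, limma adjusted p = 0.0524) and Fyn (0.24, adjusted p = 0.133). Pik3cd, the leukocyte form of the phosphoinositide 3-kinase catalytic subunit, fell by -0.46 (SE 0.08, adjusted p = 0.0246; its second probe set, at -0.16, did not pass). Lck, a Src family kinase of T and killer cells, fell by -0.54 (SE 0.13, adjusted p = 0.0494). Leaving out any 1 array other than hypoxia replicate 3 ended the calls of Stat4, Pik3cd and Lck, with an adjusted p of at most 0.110, 0.0861 and 0.137. That of Lck also ended without the filter and without a variance trend.

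Brakes on the pathway, 11 genes, had 0 rises and 1 fall. Ptpn2, a phosphatase that removes phosphate from JAK kinases, fell by -0.30 (SE 0.07, limma adjusted p = 0.0467), a call lost without any 1 of the 6 arrays, without the filter and without a variance trend (adjusted p up to 0.151). Of the STAT5 target and survival genes, 10 genes, 0 rose and 1 fell, with a median of -0.21. In 5 of the 10 every hypoxia array lay below every ambient array, against 14.1% of all probe sets tested. These were Bcl2l11, Pim1 (-0.53), Ccnd2 (-0.60), Ccnd3 (-0.22) and Gzmb, of which only Bcl2l11 passed. In 1 of the 10, Myc (0.21), every hypoxia array lay above every ambient array, and Myc did not pass. Bcl2l11 (Bim), which promotes cell death in mouse killer cells when interleukin 15 is withdrawn, fell by -0.43 (SE 0.10, adjusted p = 0.043), lost without any 1 array but hypoxia replicate 3 and without a variance trend (up to 0.143). Cish, a feedback inhibitor that STAT5 is known to induce, read 6.01, 5.98 and 6.04 under hypoxia, against 6.10, 5.98 and 5.75 in ambient tissue, with overlapping groups and a difference of 0.07 (95% interval -0.17 to 0.31). Cish, which stands in the list of brakes, was singled out after its value was seen. Of the gamma chain cytokines and their private receptors, 2 of 9 with a probe set passed the filter on low means, Il4r (0.02) and Crlf2 (-0.16), and neither passed the test.

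Other transcription factors of killer cells numbered 20 genes, of which 0 rose, 4 fell and 16 missed the threshold, with a median of 0.01. In 6 of the 20 every hypoxia array lay below every ambient array, against 14.1% of all probe sets tested. In 4 every hypoxia array lay above every ambient array, Gata2 (0.24), Zeb2 (0.42), Prdm1 (0.17) and Tbx3 (0.29), none past the threshold. Other probe sets of Zeb2 (-0.11 to 0.41) and Tbx3 (-0.05 and 0.03) went both ways. Id2, which holds E proteins in check and is needed for killer cells to form, read 12.19, 11.80 and 12.35 under hypoxia, against 12.83, 12.70 and 12.76 in ambient tissue. It fell by -0.65 (SE 0.13, limma adjusted p = 0.0309; its second probe set, at -0.52, did not pass). Irf8, a factor of myeloid and killer cells, fell by -0.74 (SE 0.14, adjusted p = 0.0299). Runx3, which acts in cytotoxic lymphocytes, fell by -0.47 (SE 0.11, adjusted p = 0.0455), with -0.06 and no call at its second probe set. Lef1, a factor of Wnt signalling, fell by -0.45 (SE 0.08, adjusted p = 0.0256), and its second probe set fell too (-0.39). Leaving out any 1 array other than hypoxia replicate 3 ended the calls of Lef1 and Runx3, and that of Runx3 also ended without a variance trend. That of Id2 ended without any 1 ambient array or without hypoxia replicate 1. That of Irf8 ended without any 1 array other than ambient replicate 1 and hypoxia replicate 3. The adjusted p was at most 0.135 in these cases.

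Among 10 genes that regulate Il15 in stroma and myeloid cells, 2 were higher and 0 lower. Hand2, a progesterone-induced factor of the decidua that is known to raise Il15 in human endometrial stroma, read 8.55, 8.56 and 8.45 under hypoxia, against 7.95, 7.85 and 7.85 in ambient tissue. It rose by 0.64 (SE 0.07, limma adjusted p = 0.00601), and its second probe set rose by 0.86. Bmp2, a decidual growth factor, rose by 0.91 (SE 0.20, adjusted p = 0.0412), a call lost without any 1 array but ambient replicate 1 and without a variance trend (up to 0.131). The other 8 missed the threshold, and 3 of them had every hypoxia array below every ambient array, against 14.1% of all probe sets tested. Rela, at 0.05, narrowly had every hypoxia array above every ambient array. Irf1, an interferon-induced factor, read 9.43, 9.36 and 9.50 under hypoxia, against 9.86, 9.69 and 10.12 in ambient tissue, a difference of -0.46 (SE 0.11, adjusted p = 0.0504, from 0.0247 to 0.128 over the alternatives; it passed without ambient replicate 2). Nfkb1, a subunit of NF-kappa B, differed by -0.27 (adjusted p = 0.0775) and Ptger2, a prostaglandin E2 receptor, by -0.39 (adjusted p = 0.0699). The list median was 0.04, and 4 genes lay within 0.1 of 0.

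**Figure D4:**
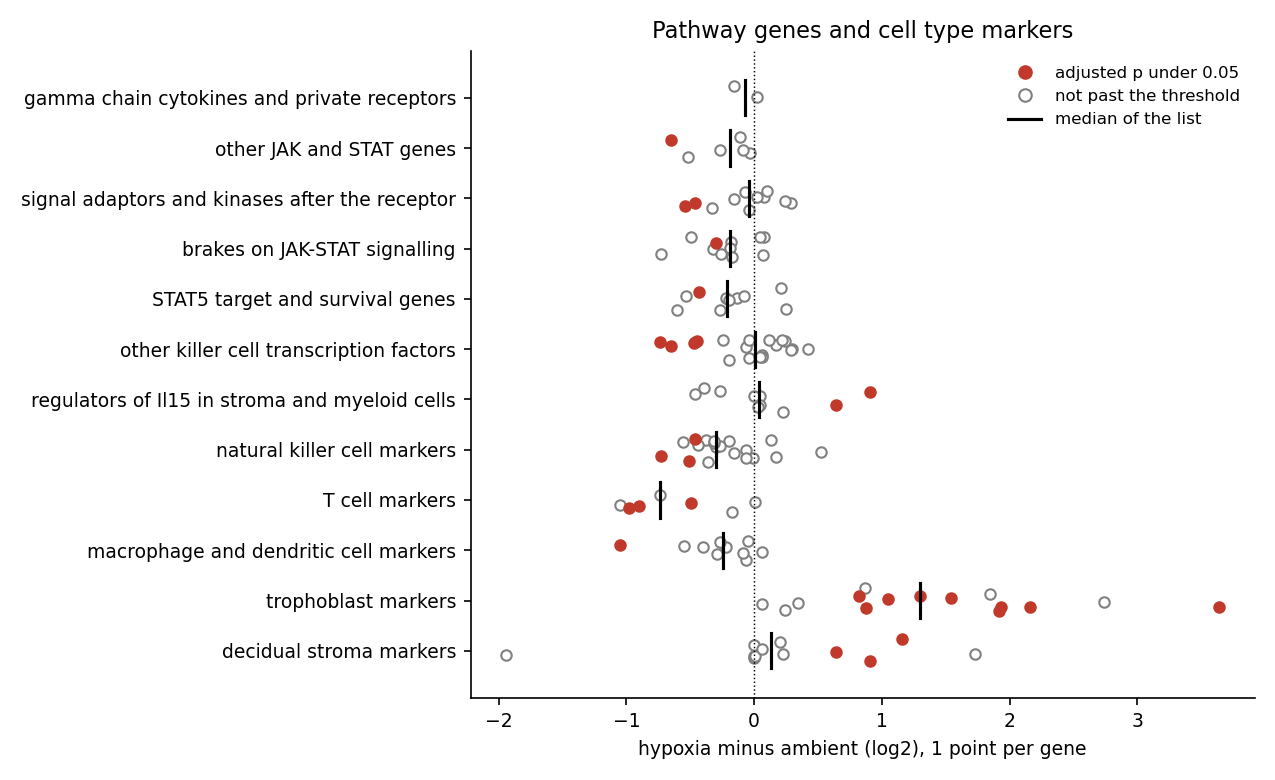
Difference of each gene of the pathway lists and of 5 marker lists, hypoxia minus ambient (log2), 1 point per gene at its brightest probe set; filled points passed the test and black bars are list medians. Pathway points past the threshold lie left of 0 except the 2 regulators of Il15, and trophoblast markers lie to the right.

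In bulk tissue, fewer killer cells and less of a transcript per cell cannot be told apart. Of 19 killer cell markers above the filter, 0 were higher and 3 lower (Cst7, a granule protease inhibitor, by -0.73, the granule protein Nkg7 by -0.46 and Hcst, an adaptor of activating receptors, by -0.51), with a median of -0.30. Of the 19, 16 lay below 0 and 3 above, and Klrd1, a subunit of lectin-like receptors, differed by 0.52 with overlapping groups (unadjusted p = 0.0417, limma adjusted p = 0.192). Of the 16 below 0, 3 lay within 0.1 of 0. The linear signal summed over 22 genes was 45720 to 48710 under hypoxia and 54340 to 60630 in ambient tissue, but Gzmb and Prf1 alone made up 61.1% to 64.6% of it. Over the other 20 genes it was 17150 to 17450 under hypoxia and 19650 to 22850 in ambient tissue. The call of Hcst was lost without any 1 array, that of Cst7 without ambient replicate 3 and that of Nkg7 without hypoxia replicate 1. The granule genes Prf1 (13.37 ± 0.08 under hypoxia, 13.64 ± 0.17 in ambient tissue) and Gzmb (14.27 ± 0.10 under hypoxia, 14.47 ± 0.05 in ambient tissue; SD, n = 3 each) were near the top of the arrays' range in both groups and did not pass (adjusted p = 0.107 for Prf1 and 0.0825 for Gzmb; Prf1 passed without ambient replicate 1), whereas Gzma and Ifng stayed at or below the highest bacterial control on every array. Summed T cell markers (11 genes) were 922 to 1146 under hypoxia and 1371 to 1676 in ambient tissue, with 3 of 7 lower (Cd3g, Cd247 and Cd8a). Each of these calls was lost when ambient replicate 1, hypoxia replicate 1 or hypoxia replicate 2 was left out. That of Cd3g was also lost without ambient replicate 3 and that of Cd8a without ambient replicate 2. That of Cd247 was lost without any 1 array other than hypoxia replicate 3. Cd247 and Cd8a made up 49.5% to 58.0% of that sum, and the other 9 genes also separated the groups. Summed macrophage and dendritic cell markers (11 genes) were 5003 to 5150 under hypoxia and 5355 to 5760 in ambient tissue, with 1 of 10 lower. Cd14 and Cd68 made up 52.3% to 61.1% of that sum. Over the other 9 genes the groups overlapped, at 1947 to 2397 under hypoxia and 2255 to 2742 in ambient tissue. Trophoblast markers (16 genes) moved the other way, with a summed signal of 18390 to 26050 under hypoxia and 3994 to 9702 in ambient tissue and 9 of 15 higher. Elf5, a trophoblast stem cell factor, was the only 1 of the 16 at bacterial level on all arrays. Cdx2 (0.34, limma adjusted p = 0.153) and Ascl2 (0.82, adjusted p = 0.0242), of the same list, lay above that level on all arrays. Decidual stroma markers (12 genes) summed to 85510 to 99090 under hypoxia and 71170 to 76360 in ambient tissue, with 3 of 12 higher. They did not move together. Prl8a2 (1.73, adjusted p = 0.0683) and Cryab (1.16, past the threshold) gave 85.5% of the difference in the summed signal, and 5 of the 12 lay within 0.1 of 0. Igfbp1, a decidual secretory protein, read 7.23, 5.90 and 5.28 under hypoxia, against 8.70, 7.66 and 7.88 in ambient tissue, 26.0% of the ambient level (difference -1.94, limma adjusted p = 0.0525). Its groups did not overlap, and it passed without hypoxia replicate 1 and under both other scalings, while Prl8a2 passed without hypoxia replicate 2 and with array weights.

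Markers of further cell types moved with the groups as well. Endothelial markers (10 genes) summed to 8502 to 9034 under hypoxia and 7131 to 7543 in ambient tissue, with 5 of 10 higher, among them Vwf, a clotting protein of vessel walls (1.20), and the receptor Tie1 (0.69). Red cell markers (7 genes) summed to 18260 to 22620 under hypoxia and 7685 to 10550 in ambient tissue, with 4 of 6 higher. Hbb, a globin (1.28), and Alas2, a heme synthesis enzyme of red cell precursors (2.30), were among these and made up at least 92.5% of that sum on every array. Of 5 epithelium markers above the filter 2 were lower, the adhesion genes Epcam (-1.77) and Cdh1 (-1.07), with a summed signal of 537.5 to 827.9 under hypoxia and 899.7 to 1239 in ambient tissue (9 genes). Array weights, a robust variance trend, or leaving out any 1 array other than hypoxia replicate 1 ended both of these calls (adjusted p up to 0.154), and Cdh1 was also lost without a variance trend. Among neutrophil and mast cell markers, 2 of 6 were higher, the neutrophil proteins S100a8 (1.38) and S100a9 (1.67). Lcn2, of the same list, went the other way at -1.93, 26.3% of the ambient level, without overlap (limma adjusted p = 0.125). The summed signal of this list, moved most by Lcn2 and S100a9, was 2158 to 2869 under hypoxia. It overlapped the sum of 1996 to 3351 in ambient tissue (7 genes). Of 2 B cell markers above the filter 1 was lower, and 0 of 7 smooth muscle markers passed. The part of all these shifts in the differences of the members was not tested.

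The genes whose profiles over the 6 arrays lay nearest to those of members were found by the root mean square distance between profiles centred on their own means, among 10545 genes. Nearest to Il15 were Septin6 (distance 0.0918), Rps4y2 (0.103), Rasgrp1 (0.121), an activator of Ras in lymphocytes, and Cks2 (0.137), a partner of cyclin-dependent kinases. Nearest to Il2rb were Sash3 (0.0534), a lymphocyte adaptor, Gstm1 (0.0558), a glutathione transferase, Bspry (0.0563) and Batf (0.0599), a leukocyte transcription factor. Nearest to Eomes were Hebp2 (0.0243), Lrwd1 (0.0314), Acat1 (0.0334), a mitochondrial thiolase, and Usp11 (0.0345), a deubiquitinating enzyme.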

How the data were processed

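The authors deposited 1 value for each probe set on each array. The deposited values run from 2.98 to 14.9, from which a log2 scale was inferred. MAS5 and Affymetrix Expression Console stand in the submitters' processing notes without a role, and how background, summary and scaling were handled is not given in the sources used. Array medians lay between 6.44 and 6.47. Precision is limited by the number of arrays.

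From 31099 probe sets, 57 controls and the 40% with the lowest mean (below 5.74) were left out, which kept 18625, among them all 10 member probe sets. Symbols came from the platform annotation, checked by gene identifier in RefSeq (GRCr8; 20758 of 20826 matched). Hypoxia and ambient arrays, 3 each, were compared in R 4.3.3 with limma 3.58.1 (lmFit, eBayes with a variance trend, group as the only term, two-sided, Benjamini-Hochberg over all kept probe sets). Pairs of members were compared with exact permutation tests in scipy 1.17.1, and sequences were read from RefSeq tables. Alternatives were other scalings, filters, offsets and variance models, array weights, the replicate number as a block, and leaving out each array. The fit was tested on simulated data.

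Named genes were all members, up to 4 genes per list past the threshold by smallest p (2 where none passed), and the 4 profiles nearest to Il15, Il2rb and Eomes; of the marker lists, only some of these genes are named. Outside that rule, further genes were named after their values were seen. Among pathway genes these were Jak2, Mtor, Fyn, Cish, Pim1, Ccnd2, Ccnd3, Myc, Gata2, Zeb2, Prdm1, Tbx3, Il2, Il2ra, Irf1, Nfkb1, Rela and Ptger2. Among markers these were Prf1, Gzmb, Gzma, Ifng, Klrd1, Cd14, Cd68, Lcn2, Elf5, Cdx2, Ascl2, Igfbp1 and Prl8a2. A gene with several probe sets is represented by that of highest mean. The members and lists were chosen with earlier results of these data known. The background guide was 27 bacterial probe sets, at most 5.0 on any array. Correlations between arrays lay between 0.989 and 0.993 within groups and between 0.974 and 0.983 across groups. The 3' minus 5' signal of beta-actin, a sign of RNA integrity, was 0.67 ± 0.10 in hypoxia and 0.50 ± 0.07 in ambient (SD, n = 3 each). That of GAPDH was 0.00 ± 0.05 in hypoxia and -0.03 ± 0.02 in ambient (SD, n = 3 each).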

Additional observations from a re-analysis of the deposited data

How the results depend on the processing

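No member probe set changed sign under any of the 15 alternatives, and 0 were called higher under any of them. Of 149 recomputed member differences, 7 lost a call and 9 gained one. The 2 member probe sets called lower became 5 with the replicate block (Il15, Il2rg and Stat5b besides Il2rb and the first Eomes probe set, with Il15 at an adjusted p of 0.012, Il2rg at 0.00952 and Stat5b at 0.0496; the call of Ptpn2 was lost under it), and ranged from 0 to 4 with 1 array left out. Whether the replicate numbers pair the arrays was not settled. Deviations of same-numbered arrays from their group means correlated at 0.0124, 0.0706 and 0.0705, and those of other pairs of arrays at -0.137 to 0.0807. Hypoxia replicates 2 and 3 correlated best with their own number, but hypoxia replicate 1 with ambient replicate 3. Of all probe sets tested, 749 were higher and 367 lower. The counts ranged from 226 to 666 and from 44 to 340 with 1 array left out, and 241 were lower with no variance trend. Of all calls, 55.4% were higher with quantile normalization, against 67.1% without it. Il2rb minus Il15 turned to -0.01 without hypoxia replicate 2, so its direction rested on that array; its other values with 1 array left out reached 0.28. Il4r, at 0.02, turned to -0.0034 with quantile normalization and ranged from -0.04 to 0.06 with 1 array left out. Cish, at 0.07, turned to -0.03 without ambient replicate 3 and ranged up to 0.15 with 1 array left out. The cause of these changes was not tested. The 60% filter gives no value for Stat5b, whose mean is too low. The 3 planned pairs with Il15ra or Tbx21 could not be run.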

Other observations

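Ambient replicate 3 was the highest ambient array for all 10 member probe sets, those of Jak1, Jak3 and Stat5a included. On that array the summed signal of trophoblast markers was 3994, against 9702 and 8318 on the other ambient arrays, and the summed signal of killer cell markers was 60630, against 54340 and 55440. Under hypoxia replicate 3 was highest for 5 of the 10 probe sets. For 4 genes, Il15, Il2rb, Il2rg and Stat5b, the arrays stood in one order in both groups, with replicate 3 highest, replicate 1 next and replicate 2 lowest. Whether replicate numbers pair the arrays over the whole table was not settled. The shares of all probe sets with ambient replicate 3 highest, or with this order, were not counted. Neither can thus be called particular to the members, and any link to the summed signals was not tested.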
